A study of Mus musculus with 4 samples.

Results

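The genes described here are 26 genes of cholesterol synthesis and its regulation, taken by name from a pathway list and matched by symbol, out of 22422 genes in the deposited table. They comprise 19 enzymes that lead from acetyl-CoA to cholesterol, and 7 genes that regulate the pathway or handle its product. RNA of the distal colon was sequenced from female mice aged 6 weeks that had received 2% dextran sulfate sodium (DSS), a polysaccharide that injures the colonic epithelium, for 5 days. The groups were wild type (2 libraries, strain C57BL/6) and Elf4fl/fl-Villin-Cre (2 libraries, called the Cre group below), in which Cre made under the villin promoter cuts out loxP-flanked Elf4 in the intestinal epithelium, while other cells keep the gene. As strain the Cre group has the label C57BL/8, whereas the series text gives C57BL/6 for both groups. Both groups received DSS, and untreated colon was not analysed here. Nothing in the labels says that the libraries of a group came from separate animals, so p-values measure only the spread between these libraries, which may be technical.

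Cholesterol is built from acetyl-CoA through mevalonate, isoprenoid diphosphates, squalene and lanosterol. The transcription factor SREBP-2, product of Srebf2, switches on nearly all of the enzyme genes when sterol in the membrane of the endoplasmic reticulum is low. Scap escorts SREBP to the Golgi for cleavage, and the Insig proteins hold Scap back when sterol is abundant. Intestinal epithelium makes cholesterol for its own renewing membranes, beside what it takes up from the lumen.

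All 26 genes were well measured, at 100 to 4394 reads per library, out of library totals of 15885028 to 16425954 reads. The values below are the authors' normalised reads, which are read counts divided by 1 factor per library. Elf4 itself stood at 1588 and 1938 in wild type and at 897 and 758 in the Cre group, a log2 fold change of -1.09 ± 0.16 (SE; limma adjusted p = 0.0139). Cell type markers moved with the groups: all 11 general epithelial genes (among them Epcam and Cdh1) were lower, all 8 macrophage genes and 6 of 7 neutrophil genes were higher, and the exception, Ly6g, had a log2 fold change of -0.40. Markers of squamous epithelium, which lines the anal canal and not the colon, were uneven between libraries: the 6 squamous markers summed to 193 and 4586 in wild type replicates 1 and 2, and to 106 and 760 in Cre replicates 1 and 2. The 6 adipocyte markers summed to 1742 and 1093 against 2167 and 1671, with 0 called by limma or edgeR and 0 at an unadjusted p under 0.05. Over all genes edgeR had 20.3% lower and 18.7% higher at that unadjusted cut.

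RNA of the cholesterol synthesis enzymes was lower in the Cre group at nearly every step. Of the 19 enzymes, 18 fell and 0 rose (limma, Benjamini-Hochberg adjusted p under 0.05 over 22050 genes), where 8.6% of all genes tested fell and 6.86% rose. The same 18 passed edgeR's quasi-likelihood test, which called 13.5% of its 17337 genes lower and 9.88% higher. At an unadjusted p under 0.05, 0 enzymes were higher in either test. Over all genes that cut gave 20.3% lower and 18.7% higher in edgeR. In limma with 0.5 or 5 added to the values in place of 1 it gave 15.3% or 15.5% lower and 16.6% or 16.7% higher. The median log2 fold change of the enzymes was -1.17, against 0.11 over all genes tested, and 13 of the 19 stood at -1 or lower. Taken as a sum, the enzymes held 21424 and 25369 normalised reads in wild-type libraries and 9756 and 10739 in the Cre group. The exception was Lbr, described below. When any 1 library was left out, edgeR called 14 to 17 enzymes lower, where it called 4.41% to 12.1% of all its genes lower. The fewest, in both cases, were called without wild type replicate 2. By contrast limma, which then had 1 residual degree of freedom, called 0 of all genes (at an unadjusted p under 0.05, 17 to 18 enzymes and 9.42% to 13% of all genes were lower). Limma without a variance trend also called 0 of all genes (at an unadjusted p under 0.05, 18 enzymes and 12.5% of all genes were lower).

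**Figure D1:**
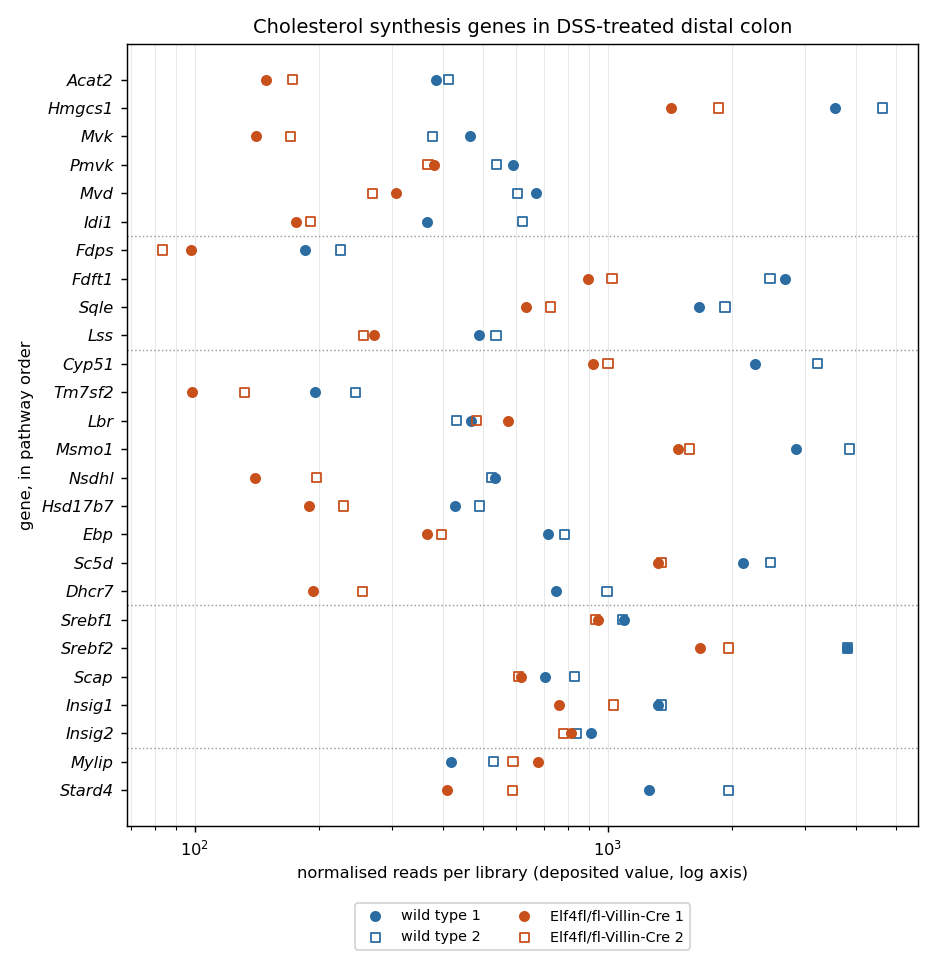
Normalised reads of the 26 genes (log axis) in each of the 4 libraries, with genes in pathway order and dotted lines between the steps of the pathway. Both Elf4fl/fl-Villin-Cre points lie left of both wild-type points for 24 genes, and right of them for Lbr and Mylip.

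In 24 of the 26 genes both Cre values were below both wild-type values, a separation that 27.2% of all genes tested showed. In the other 2, Lbr and Mylip, both were above, as in 35.0% of all genes tested.

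The steps from acetyl-CoA to isoprenoid units fell in 6 of 6 cases, with a median log2 fold change of -1.31. Acat2, the cytosolic thiolase that joins 2 acetyl-CoA, stood at 384 and 412 in wild type and at 149 and 172 in the Cre group. Hmgcs1, the synthase that makes HMG-CoA, went from 3556 and 4630 to 1422 and 1855. Both genes were lower by about the same factor, 2.48-fold and 2.50-fold (limma adjusted p = 0.0106 and 0.0141). Mvk, which phosphorylates mevalonate, had 465 and 377 in wild type against 141 and 171, a log2 fold change of -1.43 ± 0.19 (SE; limma adjusted p = 0.0116). Mvd, the decarboxylase that yields isopentenyl diphosphate, had 672 and 605 against 308 and 270. Pmvk, the kinase between those 2 enzymes, fell least in this stretch: 592 and 538 in wild type against 380 and 367, a log2 fold change of -0.59 ± 0.14 (SE; limma adjusted p = 0.0387). Its call was lost in edgeR whichever library was left out (adjusted p = 0.0658 to 0.0777). Idi1, the isomerase of isopentenyl diphosphate, was uneven in wild type at 364 and 623, and stood at 176 and 191 in the Cre group. Its lower wild-type library was still above both of the latter, and the log2 fold change was -1.37 ± 0.27 (SE; limma adjusted p = 0.0242). Idi1 was not alone in this: replicate 2 was the higher wild-type library for 13 of the 19 enzymes, as for 48.2% of all genes tested. In the Cre group replicate 2, which had the higher squamous sum there, was the higher for 14 of 19, as for 54.2% of all genes tested. The library with the higher Idi1 value, wild type replicate 2, is the one with 4586 squamous marker reads. Without it Idi1 remained lower in edgeR (log2 fold change -1.01, adjusted p = 0.0479).

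The 4 enzymes from farnesyl diphosphate to lanosterol all fell, with a median log2 fold change of -1.28. Fdps, which builds farnesyl diphosphate, had 185 and 225 normalised reads in wild type against 97.7 and 83.6 in the Cre group. Fdft1, squalene synthase and the first enzyme committed to sterols, had 2696 and 2474 against 896 and 1024. Sqle, squalene epoxidase, had 1665 and 1925 against 634 and 728. In Fdft1 and Sqle the wild-type libraries differed by far less than the groups did, and the groups differed 2.69-fold and 2.64-fold (limma adjusted p = 0.00799 and 0.00942). Lss, the cyclase that closes the sterol rings, had 488 and 536 against 272 and 256, a log2 fold change of -0.95 ± 0.15 (SE; limma adjusted p = 0.0145). In edgeR, Fdps missed the threshold when wild type replicate 2 was left out (adjusted p = 0.0784).

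From lanosterol to cholesterol 8 of 9 enzymes fell, and this stretch held both the largest decrease and the only enzyme that did not fall. Dhcr7, the reductase that makes cholesterol from its immediate precursor, went from 749 and 997 to 194 and 255 normalised reads. This was a log2 fold change of -1.95 ± 0.21 (SE; limma adjusted p = 0.00942), or means of 873 ± 175 and 224 ± 43.3 (SD, n = 2 each). It was the largest fall among the 26 genes, and the gene (ENSMUSG00000058454.15) lies on chromosome 7 from 143823145 to 143848410 in mm10. Nsdhl, a dehydrogenase of the complex that strips methyl groups from the sterol ring, had 534 and 523 in wild type against 140 and 197, 3.13-fold lower (limma adjusted p = 0.01). Among its partners in that complex the log2 fold change was -1.12 for Msmo1, the methylsterol oxidase, and -1.13 for Hsd17b7, the ketosterol reductase (limma adjusted p = 0.0151 and 0.0146). Msmo1 had 2860 and 3845 normalised reads in wild type against 1477 and 1579, and Hsd17b7 427 and 490 against 189 and 229. Whether Nsdhl fell more than its partners was not tested. Cyp51, the lanosterol demethylase, had 2280 and 3222 against 919 and 1003, a log2 fold change of -1.50 ± 0.19 (SE; limma adjusted p = 0.0108).

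The sterol isomerase gene Ebp had 717 and 786 normalised reads in wild type against 366 and 395 in the Cre group, a log2 fold change of -0.98 ± 0.14 (SE; limma adjusted p = 0.0128). Sc5d, the desaturase that acts before Dhcr7, had 2130 and 2484 against 1322 and 1349. It changed less than the other enzymes called in this stretch, by -0.78 ± 0.14 on the log2 scale (SE; limma adjusted p = 0.0187), and in the edgeR fit that left out wild type replicate 2 its adjusted p was 0.0538.

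Tm7sf2 and Lbr encode the 2 enzymes that can reduce the double bond left by Cyp51, and of the pair Tm7sf2 fell. Tm7sf2 had 195 and 246 normalised reads in wild type against 98.5 and 132 in the Cre group, a log2 fold change of -0.94 ± 0.23 (SE; limma adjusted p = 0.0456). Lbr, whose product is also the lamin B receptor of the inner nuclear membrane and is made in most cell types, had 466 and 431 against 575 and 481, a log2 fold change of 0.23 ± 0.15 (SE; limma adjusted p = 0.355). The test did not separate this difference in Lbr from the spread between libraries. Within each library there were 2.38 and 1.76 Lbr reads per Tm7sf2 read in wild type, and 5.83 and 3.64 in the Cre group. The ratio was higher in both Cre libraries, but 2 libraries against 2 cannot give less than p = 0.333 in a two-sided exact permutation test, which was the value obtained. This pair, like those of the Srebf and Insig genes, was chosen after the values were seen. In edgeR, Tm7sf2 missed the threshold when wild type replicate 1, wild type replicate 2 or Cre replicate 1 was left out (adjusted p = 0.0518, 0.148 and 0.121), and in limma with no filter on low values (0.0633) or with quantile scaling (0.0507).

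**Figure D2:**
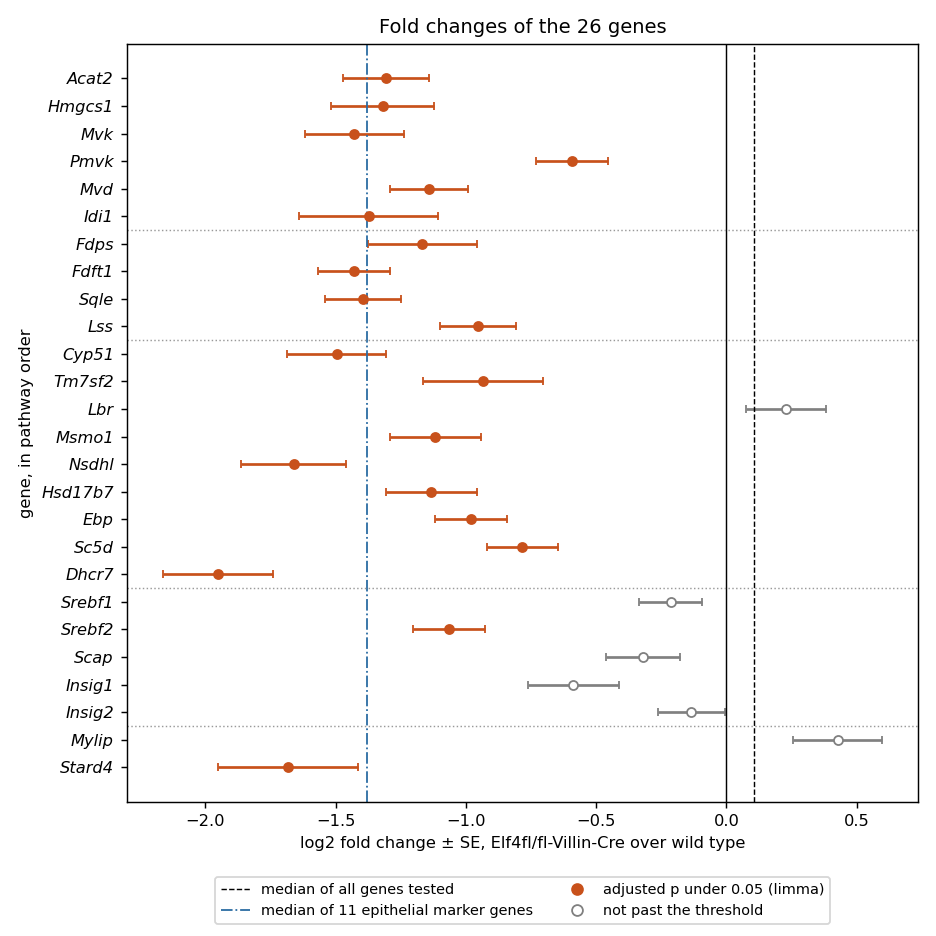
Log2 fold change of each of the 26 genes (points) with its SE (bars), Elf4fl/fl-Villin-Cre over wild type, in pathway order. Filled points passed limma at an adjusted p under 0.05, the dashed line is the median of all genes tested (0.11) and the dash-dotted line that of 11 epithelial marker genes (-1.38). Dhcr7 lies farthest to the left at -1.95, and Lbr is the enzyme to the right of 0.

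Counts of whole genes were made without a stated strand setting, and exons of several members overlap another gene, so their reads cannot be fully told apart. On the opposite strand, among others, Fdft1 overlaps Ctsb, Cyp51 overlaps Akap9, Lbr overlaps Dnah14 and Srebf1 overlaps Rai1. On the same strand Tm7sf2 overlaps Vps51, Fdps overlaps Gm43738, Lbr overlaps the rRNA gene Gm26004 and Srebf1 overlaps the microRNA gene Mir6922. Strand could not separate these same-strand pairs.

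Per kilobase of annotated exon, the enzymes spanned a wide range of levels in wild type. Hmgcs1 was highest at 774 and 1008 normalised reads per kilobase, followed by Cyp51 at 516 and 730, Fdft1 at 638 and 585, Msmo1 at 466 and 626 and Sc5d at 438 and 510. The values of Cyp51, Fdft1 and Msmo1 overlapped between libraries, so their order is not resolved. Lowest were Lss at 45.2 and 49.7, Fdps at 44.0 and 53.6 and Tm7sf2 at 44.4 and 55.8 normalised reads per kilobase, and these 3 overlapped too. All annotated exons entered the length, so a gene with long, rarely used exons is understated. Levels of both ends of this range fell: the mean of Hmgcs1 went from 891 to 357, and that of Tm7sf2 from 50.1 to 26.2 normalised reads per kilobase. In the Cre group Lbr, at 111 on average against 94.2 in wild type, stood above Nsdhl (59.1), Mvk (58.2), Acat2 (63.1), Idi1 (52.3) and Dhcr7 (38.6), all of which were above it in wild type (185, 157, 156, 141 and 150 on average).

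Among the 7 regulator and handling genes, 2 fell and 0 rose in limma, where 8.6% of all genes fell and 6.86% rose. In edgeR 3 of them fell and 0 rose, where 13.5% of all its genes fell and 9.88% rose. At an unadjusted p under 0.05, limma had 3 lower and 1 higher and edgeR 4 lower and 0 higher. Over all genes that cut gave 20.3% lower and 18.7% higher in edgeR. In limma with 0.5 added to the values in place of 1 it gave 15.3% lower and 16.6% higher. The median log2 fold change of the 7 genes was -0.32. Srebf2, the main activator of the enzyme genes, was nearly equal in both wild-type libraries at 3796 and 3802 normalised reads, and stood at 1675 and 1963 in the Cre group. This 2.09-fold difference was a log2 fold change of -1.07 ± 0.14 (SE; limma adjusted p = 0.0111). The gene (ENSMUSG00000022463.7) lies on chromosome 15 from 82147181 to 82205379 in mm10. Its relative Srebf1, which mainly drives fatty acid synthesis, had 1097 and 1086 in wild type against 949 and 933, a log2 fold change of -0.21 ± 0.12 (SE; limma adjusted p = 0.28). There were 0.289 and 0.286 Srebf1 reads per Srebf2 read in wild type and 0.566 and 0.475 in the Cre group (two-sided exact permutation p = 0.333, the smallest possible).

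Of the genes that control the release of SREBP, limma called 0 of 3, and edgeR called Insig1. Scap had 706 and 832 normalised reads in wild type against 617 and 609 in the Cre group, a log2 fold change of -0.32 ± 0.14 (SE; limma adjusted p = 0.182). Insig1, itself an SREBP target gene, had 1326 and 1349 against 763 and 1035. Its log2 fold change of -0.59 ± 0.17 (SE) did not pass limma (adjusted p = 0.0734), whereas edgeR called it (adjusted p = 0.0459). Insig2 had 913 and 841 against 814 and 781, at -0.14 ± 0.13 (SE; limma adjusted p = 0.513). Insig2 reads per Insig1 read were 0.688 and 0.623 in wild type and 1.07 and 0.754 in the Cre group, the latter differing between replicates through Insig1 (two-sided exact permutation p = 0.333, the smallest possible). Stard4, a sterol carrier of the cytosol that is also an SREBP target, went from 1260 and 1963 to 407 and 588, a log2 fold change of -1.68 ± 0.27 (SE; limma adjusted p = 0.0157). Its wild-type libraries were the most uneven of the 7 genes, yet both lay above both Cre libraries. Mylip, a ubiquitin ligase that sends lipoprotein receptors for degradation and is switched on by the sterol-sensing LXR receptors, had 417 and 530 in wild type against 677 and 590. Its log2 fold change was 0.43 ± 0.17 (SE; limma adjusted p = 0.15).

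Promoters of the members were read to show what the genes share in sequence. RefSeq windows of 300 bases (GRCm38.p6, from 250 bases before to 50 after a start site) were at hand for 22 of the 26 genes, and not for Fdps, Fdft1, Sqle and Stard4. Some genes have several windows, 30 for the 22 members, and a gene was counted if any of its windows had a match. The NF-Y motif CCAAT, on either strand, was in 20 of the 22 (90.9%), all but Acat2 and Scap, against 41.7% of the 14056 tested genes with a window. Per window it was in 21 of the 30, against 37.4% of all 32851 windows. The Sp1 motif GGGCGG was in 21 of 22 (95.5%), all but Pmvk, against 60.1% of tested genes. Per window it was in 25 of 30, against 35.7% of all windows, which include those of genes not tested. By gene, GGGCGG was in 38.2% of all 27025 genes with a window, below its share in tested genes. The E-box CACGTG was in 5 of 22 (22.7%), against 10.4% of tested genes, and in 6 of 30 windows, against 7.15% of all windows. The sterol regulatory element in its strict form TCACNCCAC was in 1 of 22, Hmgcs1, against 1.50% of tested genes. It was in 1 of 30 windows, against 1.24% of all windows. These matches are letters in a window and were not tested. Stretches free of annotated exons are given for Hmgcs1, the enzyme gene with the highest level per kilobase, for Mvk, which has the most CCAAT matches, and for Lbr, the enzyme gene that did not fall. Capitals mark the motifs on either strand, so that ATTGG is CCAAT and CCGCCC is GGGCGG read from the other strand, and no matches overlap in these stretches.
Hmgcs1, chr13:119690101-119690350, plus strand: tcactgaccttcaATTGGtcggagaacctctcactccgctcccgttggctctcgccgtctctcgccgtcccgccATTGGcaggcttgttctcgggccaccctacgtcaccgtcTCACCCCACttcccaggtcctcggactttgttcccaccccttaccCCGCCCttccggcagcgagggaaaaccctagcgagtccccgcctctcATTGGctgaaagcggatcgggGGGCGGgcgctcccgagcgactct
Mvk, chr5:114444061-114444268, plus strand: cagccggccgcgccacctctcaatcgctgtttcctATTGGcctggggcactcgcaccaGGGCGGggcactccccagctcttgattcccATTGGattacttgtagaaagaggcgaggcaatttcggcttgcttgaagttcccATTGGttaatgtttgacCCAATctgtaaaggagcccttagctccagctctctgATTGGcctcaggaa
Lbr, chr1:181842402-181842651, minus strand: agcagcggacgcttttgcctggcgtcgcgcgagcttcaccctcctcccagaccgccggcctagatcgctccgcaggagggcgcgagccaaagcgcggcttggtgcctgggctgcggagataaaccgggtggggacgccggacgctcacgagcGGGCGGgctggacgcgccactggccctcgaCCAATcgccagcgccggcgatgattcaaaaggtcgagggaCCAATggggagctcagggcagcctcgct

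In the Hmgcs1 stretch the strict element TCACCCCAC stands beside 3 CCAAT and 2 GGGCGG matches. Mvk, which fell by 1.43 on the log2 scale, has 5 CCAAT matches and 1 GGGCGG, and Lbr, at 0.23, has 2 and 1. CCAAT and GGGCGG were thus present both in genes that fell and in the enzyme gene that did not.

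Other sterol and lipid genes, from lists of the neighbouring steps, moved less uniformly. Over all genes limma called 8.6% lower and 6.86% higher, and edgeR 13.5% lower and 9.88% higher. At an unadjusted p under 0.05 edgeR had 20.3% lower and 18.7% higher. Limma with 0.5 added to the values in place of 1 had 15.3% lower and 16.6% higher at that cut. Of 11 genes that process SREBP or degrade sterol-regulated proteins, 3 fell and 0 rose in limma and in edgeR (6 lower and 0 higher at an unadjusted p under 0.05 in each), with a median log2 fold change of -0.38. Under library totals (libraries scaled to equal totals) limma called 0 lower and 0 higher, with a median of -0.07. Over all genes that scaling gave 5.25% lower and 18.2% higher, with a median of 0.41. The 3 that fell were Erlin1 and Erlin2, membrane proteins of the endoplasmic reticulum that bind Insig and SREBP complexes, and Rnf145, a ubiquitin ligase of the same membrane. Their log2 fold changes were -0.77, -0.85 and -0.52, at limma adjusted p-values of 0.0244, 0.0293 and 0.0455. In edgeR, Erlin1 and Erlin2 missed the threshold when wild type replicate 2 or Cre replicate 1 was left out (adjusted p = 0.0671 and 0.0647 for Erlin1, 0.0675 and 0.0552 for Erlin2), and Rnf145 whichever library was left out (0.0537 to 0.166). Of 13 genes of sterol uptake, lysosomal release and transport between membranes (12 of them tested by edgeR), limma and edgeR called 4 lower and 1 higher, with a median log2 fold change of -0.15. Under library totals limma called 1 lower and 4 higher, with a median of 0.16 that was still below the 0.41 over all genes. Npc2, the lysosomal sterol carrier, had 5631 and 4968 normalised reads in wild type against 3000 and 2958 in the Cre group (limma adjusted p = 0.0173). Osbp and Stard3, which act where the endoplasmic reticulum touches other organelles, fell by 0.65 and 0.72 (limma adjusted p = 0.0336 and 0.0429). Neither passed edgeR when Cre replicate 1 was left out (adjusted p = 0.105 and 0.0588), nor did Osbp when wild type replicate 2 was (0.0854) or Stard3 when wild type replicate 1 was (0.0652). The other gene that fell was Npc1, which works with Npc2, at -0.55 (limma adjusted p = 0.043). Gramd1a, which carries sterol from the plasma membrane to the endoplasmic reticulum, rose from 1043 and 848 to 2242 and 1655 (limma adjusted p = 0.0223, and edgeR adjusted p = 0.0883 without wild type replicate 2).

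Genes on the disposal side included several that rose. Of 10 genes of the LXR receptors and sterol efflux, 2 rose and 1 fell in limma, where 6.86% of all genes rose and 8.6% fell. Their median log2 fold change was -0.16. Under library totals the counts were the same and the median was 0.16. Over all genes that scaling gave a median of 0.41, with 18.2% higher and 5.25% lower. Abca1, the pump that loads cholesterol onto apolipoproteins, went from 555 and 496 normalised reads in wild type to 1745 and 1361 in the Cre group, a log2 fold change of 1.55 ± 0.17 (SE; limma adjusted p = 0.00942). Apoe, an apolipoprotein that takes up that cholesterol, rose by 0.73 (limma adjusted p = 0.0441), did not pass under median scaling (adjusted p = 0.108) and lost its edgeR call in 3 of the 4 fits without 1 library, all but that without Cre replicate 2 (adjusted p = 0.121 to 0.198). Lpcat3, a phospholipid acyltransferase, fell by 0.86 (limma adjusted p = 0.0196, and edgeR adjusted p = 0.0565 without wild type replicate 2). Abca1 and Apoe are also made by macrophages, whose 8 markers summed to 12222 and 10345 in wild type against 31735 and 20887. The part of these cells in the rise was not tested. Of 6 oxysterol enzymes 2 rose and 0 fell in limma, as in edgeR, which tested 5 (0 lower at an unadjusted p under 0.05 in each). Ch25h, which makes 25-hydroxycholesterol, a signal that holds back SREBP cleavage, had 78.2 and 37.9 normalised reads against 297 and 196 (limma adjusted p = 0.0214, and edgeR adjusted p = 0.06 without wild type replicate 2). Cyp7b1, which breaks that oxysterol down, had 92.6 and 46.4 against 339 and 296 (limma adjusted p = 0.0141). Both the enzyme that forms the oxysterol and the one that removes it were thus higher in the same libraries. Of the 3 genes of sterol ester formation and hydrolysis, 0 passed limma or edgeR (1 lower and 1 higher at an unadjusted p under 0.05 in each). Over all genes edgeR had 20.3% lower and 18.7% higher at that unadjusted cut. Soat1, which esterifies cholesterol, stood at 1184 and 1511 against 983 and 977, and Nceh1, an ester hydrolase, at 246 and 295 against 290 and 289. Soat2, the esterifying enzyme of the intestine and liver, chosen after its values were seen, had 88.5 and 49.5 against 133 and 130, a log2 fold change of 0.97 ± 0.32 (SE; limma adjusted p = 0.0911). Under library totals limma called 1 of the 3 higher.

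Of 14 fatty acid synthesis genes limma and edgeR each called 6 lower and 0 higher (7 lower and 0 higher at an unadjusted p under 0.05 in each), with a median of -0.36, and library totals gave 6 lower and 1 higher with a median of -0.05. Over all genes the shares were 8.6% lower and 6.86% higher in limma, and 13.5% and 9.88% in edgeR. Under library totals they were 5.25% lower and 18.2% higher. At an unadjusted p under 0.05 they were 20.3% lower and 18.7% higher in edgeR. In limma with 0.5 added to the values in place of 1 they were 15.3% and 16.6% at that cut. Fads2, a desaturase of polyunsaturated fatty acids, went from 1843 and 1528 normalised reads in wild type to 305 and 399 in the Cre group, 4.79-fold lower (limma adjusted p = 0.00737). Scd2, a desaturase of saturated fatty acids, had 6453 and 7879 against 1656 and 2140 (limma adjusted p = 0.00799), while its paralog Scd1 had 911 and 924 against 1270 and 942 (limma adjusted p = 0.364). Acss2 and Acly, which supply acetyl-CoA to both fatty acid and sterol synthesis, had log2 fold changes of -1.61 and -1.12 (limma adjusted p = 0.00942 and 0.0127). The other 2 that fell were Fasn, fatty acid synthase, and Acaca, its supplier of malonyl-CoA, at -0.97 and -0.85 (limma adjusted p = 0.013 and 0.0183). Genes that use isoprenoids for other products than sterols, such as prenylated proteins, dolichol and ubiquinone, mostly did not pass: limma called 1 of 14 lower and 0 higher (median log2 fold change -0.18), while edgeR called 3 lower and 0 higher (3 lower and 2 higher at an unadjusted p under 0.05 in each). Under library totals limma called 0 lower and 2 higher, with a median of 0.14 against 0.41 over all genes. The 1 was Fntb, a farnesyltransferase subunit, at 255 and 277 against 160 and 166 (limma adjusted p = 0.0384), which missed the edgeR threshold whichever library was left out (adjusted p = 0.0605 to 0.118). Pdss1 and Pdss2, subunits of the synthase that makes the ubiquinone side chain, were the others that edgeR called (adjusted p = 0.0407 and 0.046).

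**Figure D3:**
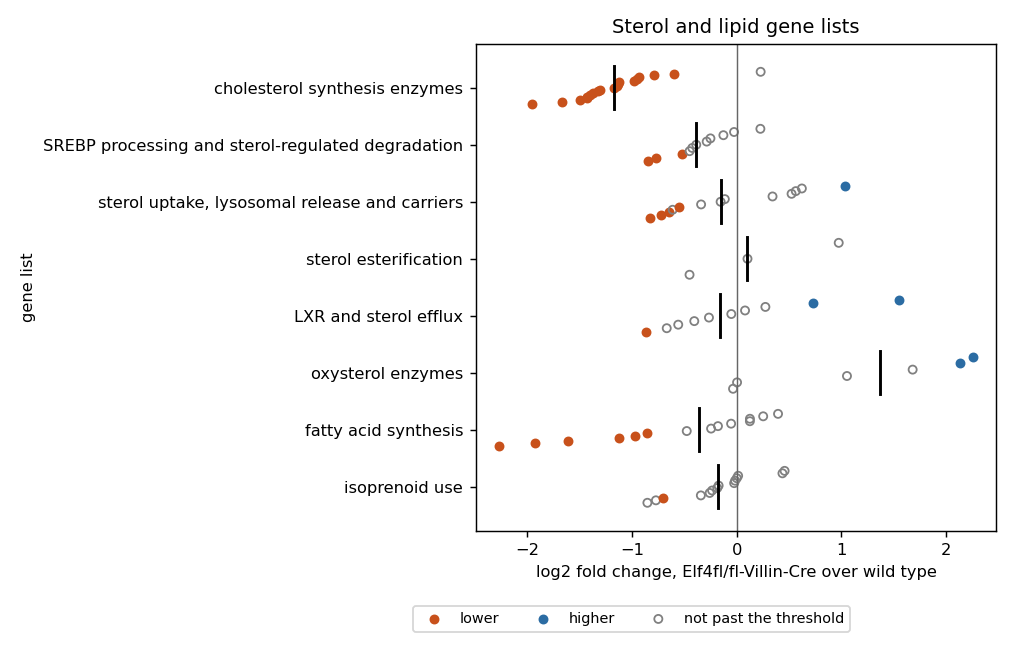
Log2 fold changes of single genes (points), Elf4fl/fl-Villin-Cre over wild type, in the cholesterol synthesis enzymes and 7 lists of neighbouring sterol and lipid genes. Filled points passed limma at an adjusted p under 0.05 and black bars are list medians, from -1.17 for the enzymes to 1.37 for the oxysterol enzymes.

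The fall of the enzymes went along with that of epithelial RNA. The 11 epithelial markers had a median log2 fold change of -1.38 (range -2.15 to -1.04), and summed to 320719 and 386909 normalised reads in wild type against 106307 and 133347. In whole tissue, fewer cells of a type and less RNA per cell cannot be told apart. Set against the epithelial sum, the enzyme sum was 6.68% and 6.56% in wild type and 9.18% and 8.05% in the Cre group. Without Krt8 and Lgals4, the 2 most abundant of the 11 markers, the enzyme sum was 12.5% and 12.4% in wild type against 15.2% and 14.2%. Krt8 and Krt19 fell most of the 11, by 2.03 and 2.15 on the log2 scale. Without these 2 the enzyme sum was 10.8% and 11.3% in wild type against 12.6% and 11.4%. The enzyme sum was also taken per single marker, a split chosen after the values were seen. It was higher in both Cre libraries than in both wild-type libraries for 7 of the 11 markers and lower for 0. The groups overlapped for 4 (Cldn7, Krt18, Krt20 and Lgals4). All 11 ratios share the same enzyme sum, so they are not separate results. Among all genes tested, taken singly, 35.0% had both Cre values above both wild-type values and 27.2% below. With 2 libraries against 2, no such difference can reach a two-sided exact permutation p below 0.333. Lbr, which did not fall (466 and 431 against 575 and 481), is part of the enzyme sum. Without Lbr the groups would also overlap for Epcam, for Cdhr5 and for the marker sum without Krt8 and Krt19. Per epithelial sum the stretch from lanosterol to cholesterol stood at 3.23% and 3.37% against 4.97% and 4.22%. That from acetyl-CoA to isoprenoid units stood at 1.88% and 1.86% against 2.42% and 2.27%. The stretch from farnesyl diphosphate to lanosterol stood at 1.57% and 1.33% against 1.79% and 1.57%, where the groups overlapped: Cre replicate 2 lay just below wild type replicate 1. Replicates differed by 1.16-fold in wild type and 1.15-fold in the Cre group for the median enzyme, and at most by 1.71-fold (Idi1) and 1.41-fold (Nsdhl).

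Other cell types also moved with the groups. Over all genes limma called 8.6% lower and 6.86% higher, and edgeR 13.5% lower and 9.88% higher. At an unadjusted p under 0.05 edgeR had 20.3% lower and 18.7% higher. Limma with 0.5 added to the values in place of 1 had 15.3% lower and 16.6% higher at that cut. In limma 3 of 5 absorptive colonocyte markers fell (Car4, Slc26a3 and Guca2a), 3 of 7 goblet cell markers (Fcgbp, Spink4 and Agr2) and 1 of 6 smooth muscle markers (Des). EdgeR called 4 colonocyte, 4 goblet cell and 1 smooth muscle markers lower. It added Car1 and Clca1 (edgeR adjusted p = 0.0449 and 0.0385). In both tests 0 of each rose (0 higher at an unadjusted p under 0.05). Of 6 fibroblast markers 2 rose (Pdgfra and Dcn), of 5 leukocyte markers 2 (Ptprc and Cd53), of 4 endothelial markers 1 (Pecam1) and of 5 erythroid markers 4 globin genes, with 0 of each lower in limma or edgeR (0 at an unadjusted p under 0.05). Of the 6 squamous markers 0 were called by either test, and 0 had an unadjusted p under 0.05. Under library totals limma called 1 goblet cell and 0 smooth muscle markers lower, and 5 fibroblast, 4 leukocyte, 3 endothelial and 5 erythroid markers higher, while the absorptive, epithelial, macrophage and neutrophil counts stayed at 3, 11, 8 and 6. Over all genes library totals gave 5.25% lower and 18.2% higher. The part of these cell type shifts in the enzymes' fall was not tested.

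**Figure D4:**
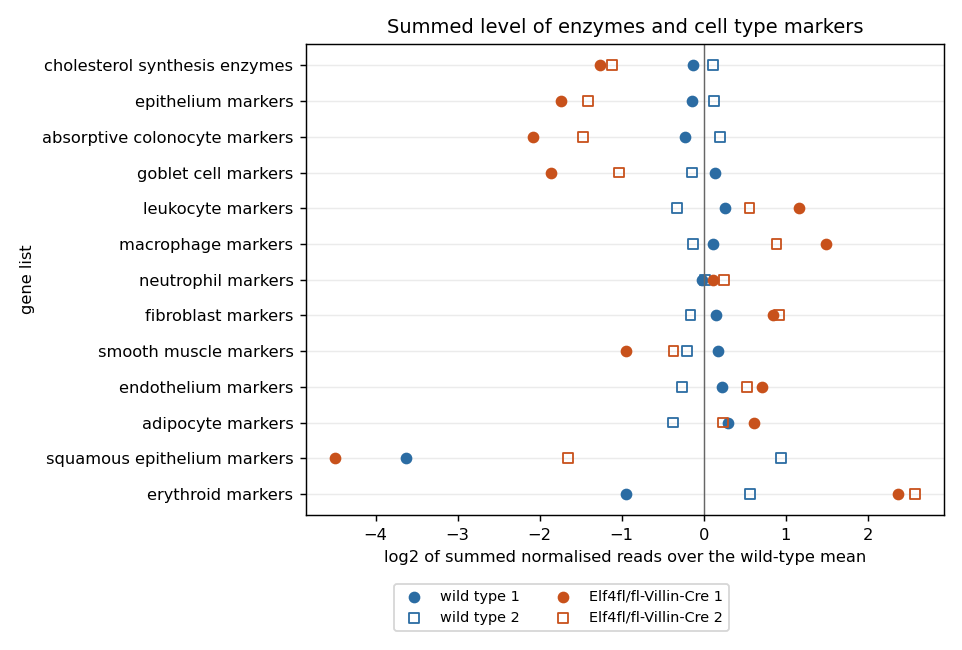
Summed normalised reads of the 19 enzymes and of 12 cell type marker lists in each library, as log2 relative to the wild-type mean of the same list. Most of the neutrophil sum is Ly6g (12663 and 13520 of 13684 and 14040 in wild type), the only neutrophil marker not called higher. The enzyme sum lies to the left in both Elf4fl/fl-Villin-Cre libraries, as do the epithelial and colonocyte sums, which lie farther left, and the squamous sum is far higher in wild type replicate 2 than in the other libraries.

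Scaling bears on the size of these changes. With libraries scaled to equal totals in place of the authors' factors, the median of all genes shifted by 0.30 on the log2 scale, and calls over all genes went from 1512 higher and 1897 lower to 4030 higher and 1162 lower. The enzymes then had a median of -0.85 with 15 of 19 lower and 0 higher. Pmvk, Tm7sf2 and Sc5d were not called (limma adjusted p = 0.2, 0.0906 and 0.0524), and Lbr, at 0.55, remained uncalled (0.0616). Under that scaling Mylip passed as higher at 0.74 (limma adjusted p = 0.0347), and Srebf1 and Insig2 turned to 0.10 and 0.18 (adjusted p = 0.571 and 0.353), while Srebf2 stayed lower at -0.75 (adjusted p = 0.0157). With all libraries scaled to the same median, the median of all genes shifted by -0.17, calls over all genes were 1078 higher and 2710 lower, 18 enzymes were lower and Lbr stood at 0.06. Under quantile scaling Tm7sf2, Sc5d, Erlin1, Erlin2, Rnf145, Npc2, Osbp and Stard3 missed the limma threshold (adjusted p = 0.0503 to 0.109), as did Tm7sf2, Rnf145, Stard3 and Apoe with no filter on low values (0.0538 to 0.0633).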

How the data were processed

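RNA of distal colon was sequenced in 4 libraries, 2 per genotype, grouped by the genotype label and numbered by the title. The authors deposited 1 normalised signal per gene and library. Dividing by the worth of 1 read gave whole numbers in 100% of values (tolerance 0.01), which makes the deposited signal a count scaled by 1 factor for each library. The submitters' processing notes name mm10. The sources used here do not give the aligner, counter, annotation release, strand setting or scaling tool. Symbols came from GENCODE M21 gene names with version numbers ignored (22358 of 22422 identifiers matched), as did positions and union exon lengths. Promoters came from RefSeq (GRCm38.p6).

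The main test was limma 3.58.1 (R 4.3.3) on log2 of the value plus 1, with genotype alone in the model, a mean-variance trend and Benjamini-Hochberg adjustment over the 22050 genes with a mean of at least 1. It had 2 residual and 4.06 prior degrees of freedom. Fold changes on this scale understate those of genes with few reads. Recovered whole reads went into edgeR 4.0.16 (TMM, filterByExpr, quasi-likelihood) and DESeq2 1.42.0 as alternatives, with other pseudocounts, filters, scalings, a replicate block and each library left out. The edgeR fits without 1 library and the splits of the epithelial sum were chosen after seeing the data. Scripts were tested on simulated data. The members and lists were chosen with earlier results of these data known. Text names Elf4, all 26 members, and in each neighbouring list up to 4 genes past the threshold by smallest p, or the 2 with the highest mean where none passed. Scd1, Npc1, Soat2, Fasn, Acaca, Pdss1, Pdss2 and the marker genes named singly fall outside that rule and were chosen after their values were seen. Another marker list is not reported here.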

Additional observations from a re-analysis of the deposited data

How the results depend on the processing

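The count of 18 enzymes lower and 2 regulator and handling genes lower was kept or moved by at most 1.5 times with other pseudocounts, filters and scalings, with edgeR and with DESeq2 (15 to 18 and 2 to 3). Limma without a variance trend called 0 and 0, as it did over all genes (at an unadjusted p under 0.05, 18 enzymes and 12.5% of all genes lower). Limma without 1 library, where the lone library of a group is assumed to vary like the other group, also gave 0 and 0, and 0 over all genes (at an unadjusted p under 0.05, 17 to 18 enzymes and 9.42% to 13% of all genes lower). EdgeR without 1 library called 14 to 17 enzymes, 2 to 3 regulator and handling genes and 4.41% to 12.1% of all genes lower. Under library totals 1 regulator and handling gene, Mylip, was higher. Directions turned, with values never past the threshold, for Srebf1 and Insig2 under library totals (0.10 and 0.18) and for Nceh1 under median scaling (-0.068) and in the fits without 1 library (-0.027 without wild type replicate 1 to 0.24 without wild type replicate 2 in limma, and -0.071 to 0.21 in edgeR). The cause was not tested. With the replicate number as a block, 18 enzymes and 3 regulator and handling genes were lower in limma and in edgeR (the added gene was Insig1, adjusted p = 0.0362 and 0.0104), and all genes gave 2066 higher and 2445 lower in limma against 1512 and 1897. Deviations of same-numbered libraries correlated at 0.198 over 16881 genes, but nothing in the labels says that a number marks a shared animal, litter or day. The effect of depth was not tested.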
